A study of Mus musculus with 4 samples.

Results

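The 10 genes described here are core and accessory genes of the circadian clock: Per1, Per2, Per3, Cry1, Cry2, Nr1d1, Nr1d2, Dbp, Clock and Ciart. They were chosen by name, and each matched 1 gene, so that 10 of the 55203 genes in the deposited tables and 44 of the 141738 transcripts were used. All 10 passed the filter on low values. RNA came from intestinal tissue of adult male wild-type C57BL/6NTac mice, 8 to 12 weeks old, kept specific-pathogen-free (SPF) on 12 h of light and 12 h of dark with free access to food. In the RVC group (2 libraries) tissue was processed with 4 mM ribonucleoside vanadyl complex, an inhibitor of ribonucleases, and the other group (2 libraries) is labelled as fresh frozen, although the single protocol text given for all libraries describes a rinse with RVC. The hour at which tissue was collected, and whether libraries came from separate or pooled animals, are not given in the sources used here, so p-values measure only the spread between these libraries, which may be technical. Each library carries a batch number of its own, so that a batch difference and a group difference cannot be told apart.

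Values are FPKM (fragments per length of transcript and per total of mapped fragments), summed over the transcripts of a gene and scaled between libraries by factors of 0.992 to 1.01. Relative depth, read from the ratio of coverage to FPKM, lay between 72.6% of the deepest library (fresh frozen 1) and 100% (fresh frozen 2), and the number of fragments is unknown. The sample labels name ileum and the protocol names distal colon. All 7 genes of a colon list were tested, from Hoxd13 at 5.73 to 38.97 scaled FPKM to Car4 at 1275 to 2381. Of 7 ileum genes, Fgf15 and Apoa4 were listed at 0 in each library, and Apoa1 and Alpi stayed below 1. The other ileum genes were present, with Fabp6 at 2.71 to 3.91, Slc10a2 at 2.35 to 3.07 and Fabp2 at 16.9 and 14.5 in RVC and 15.9 and 44.1 in fresh frozen. The segment was not settled from these lists.

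The clock is a feedback loop of transcription. CLOCK, or its relative NPAS2, pairs with BMAL1 (listed under its older symbol Arntl) and activates genes through E-boxes. Among the targets are the Per and Cry genes, whose proteins inhibit the activators, and Nr1d1 and Nr1d2, which encode the nuclear receptors REV-ERB alpha and beta that repress Arntl and Npas2. Dbp encodes an activator that acts on D-boxes, and Ciart encodes a further repressor of the activator pair. In peripheral tissues of mice under light and dark, Nr1d1, Nr1d2, Dbp, Ciart and the Per genes peak in the light phase or around dusk, whereas Arntl, Npas2 and Clock peak late in the dark phase or around dawn. Cry1 peaks later than the Per genes, and Cry2 has little rhythm in most tissues. In the gut these genes cycle in epithelium and in the muscle layers, and feeding shifts them. The ratio of a light-phase gene to a gene of opposite phase is therefore often used to compare the clock phase of samples.

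The promoters of 5 of these genes are shown as examples that hold sequence matches to elements of the loop. Use of these matches was not tested. Each is the 300 bases before the start of the most abundant transcript in the deposited tables, read 5′ to 3′ on the strand of the gene from GRCm39, with matches in capitals. Positions are chr3:95789544-95789843 (minus strand) for Ciart, chr7:45354212-45354511 (plus strand) for Dbp, chr11:98666160-98666459 (minus strand) for Nr1d1, chr1:91387047-91387346 (minus strand) for Per2 and chr4:151129123-151129422 (minus strand) for Per3.
Ciart: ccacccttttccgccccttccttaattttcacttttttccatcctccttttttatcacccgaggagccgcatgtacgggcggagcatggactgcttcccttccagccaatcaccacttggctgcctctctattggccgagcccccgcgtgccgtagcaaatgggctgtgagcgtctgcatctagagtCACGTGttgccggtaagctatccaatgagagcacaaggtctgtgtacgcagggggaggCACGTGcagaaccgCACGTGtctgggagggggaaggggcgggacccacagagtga
Dbp: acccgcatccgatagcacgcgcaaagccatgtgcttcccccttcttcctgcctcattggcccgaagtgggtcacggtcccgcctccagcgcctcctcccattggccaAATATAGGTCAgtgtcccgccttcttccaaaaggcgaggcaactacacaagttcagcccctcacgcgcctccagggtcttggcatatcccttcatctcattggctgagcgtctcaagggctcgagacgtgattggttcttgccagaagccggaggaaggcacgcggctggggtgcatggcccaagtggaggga
Nr1d1: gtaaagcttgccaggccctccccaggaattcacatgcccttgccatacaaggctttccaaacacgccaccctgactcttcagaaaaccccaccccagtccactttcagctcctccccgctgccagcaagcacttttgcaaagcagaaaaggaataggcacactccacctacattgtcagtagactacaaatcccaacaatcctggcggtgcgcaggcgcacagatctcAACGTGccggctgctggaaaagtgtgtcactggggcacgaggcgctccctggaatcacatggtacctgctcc
Per2: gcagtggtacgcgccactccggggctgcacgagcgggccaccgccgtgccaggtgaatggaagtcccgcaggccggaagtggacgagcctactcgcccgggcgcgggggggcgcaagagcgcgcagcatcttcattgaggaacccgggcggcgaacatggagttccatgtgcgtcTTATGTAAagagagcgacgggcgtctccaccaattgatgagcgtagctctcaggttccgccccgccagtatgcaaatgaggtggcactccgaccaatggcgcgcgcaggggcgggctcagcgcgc
Per3: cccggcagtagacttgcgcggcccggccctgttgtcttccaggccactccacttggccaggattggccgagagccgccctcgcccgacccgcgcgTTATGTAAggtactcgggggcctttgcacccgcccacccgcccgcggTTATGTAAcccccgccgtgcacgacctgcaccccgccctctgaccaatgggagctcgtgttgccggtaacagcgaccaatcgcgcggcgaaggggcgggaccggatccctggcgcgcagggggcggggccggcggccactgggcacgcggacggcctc

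The motifs searched on both strands were the E-box CACGTG, the related CACGTT, the D-box (TTATGTAA or TTACGTAA), the consensus ROR and REV-ERB element (RORE) and the cAMP response element TGACGTCA. No 2 matches overlapped. Ciart held 3 E-boxes. Per3 held 2 D-boxes and Per2 held 1. Dbp held 1 RORE, and Nr1d1 held 1 CACGTT on the opposite strand. Of the promoters not printed, Per1 held 1 E-box, Cry1 held 1 E-box and 1 CACGTT, and Cry2 held 1 CACGTT. Nr1d2 and Clock held no match in this window, nor did Arntl and Npas2, which were searched too. Among 13658 promoters of tested genes, 8.21% held CACGTG, 5.3% CACGTT, 0.945% a D-box, 0.264% a RORE and 2.47% the cAMP response element. The start of the Per1 transcript in the deposited tables lies 506 bases from its start in GENCODE vM39. Its window is thus not the one before the start in that annotation. The starts of Ciart, Per3, Cry1, Nr1d2, Clock and Cry2 lie 13 to 86 bases from those in GENCODE, and the starts of Nr1d1, Dbp and Per2 are the same.

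Levels per length differed widely among the 10 genes. Dbp, Nr1d1 and Nr1d2 had the highest means over the 4 libraries, at 44.6, 40.3 and 35.0 scaled FPKM, followed by Ciart at 22.8, Per1 at 16.2 and Clock at 15.5. Cry2 at 11.8, Per2 at 9.21 and Per3 at 7.50 came next, and Cry1 was lowest at 4.17. Only 9.82% of the 13771 tested genes had a higher mean than Dbp, whereas 63.2% exceeded Cry1. Neighbours in this order were often closer than their spread: Dbp and Nr1d1 changed places between libraries, and so did Per1 and Clock.

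**Figure D1:**
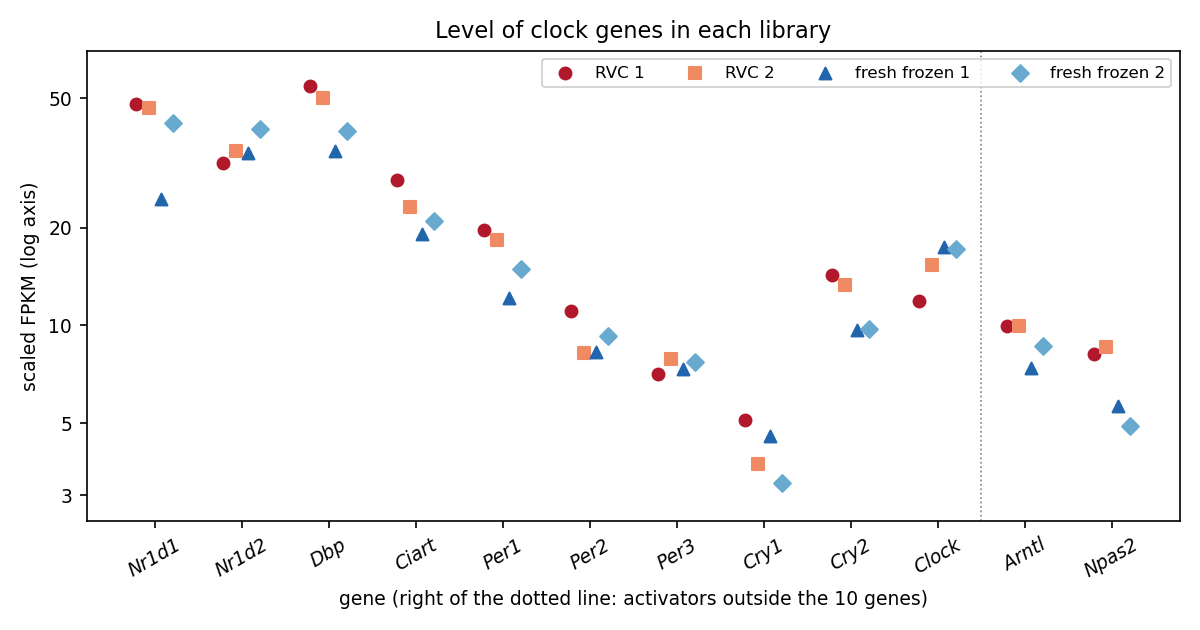
Scaled FPKM (vertical, log axis) of the 10 clock genes and, right of the dotted line, of Arntl and Npas2, with 1 point per library. Fresh frozen 1 lies apart for Nr1d1, at 24.6 against 42.0 to 47.9, while the 4 points of Per3 lie between 7.07 and 7.86.

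Dbp, the output activator, measured 54.5 and 49.9 scaled FPKM in RVC libraries 1 and 2, and 34.4 and 39.7 in fresh frozen 1 and 2. Both RVC libraries lay above both fresh-frozen libraries. The RVC mean was 52.2 ± 3.23 (SD, n = 2), against 37.0 ± 3.69 (SD, n = 2) for fresh frozen. On log2(scaled FPKM + 1) limma put the fold change at 0.49 with SE 0.12 and adjusted p 0.138. Sphk2, a sphingosine kinase gene on the opposite strand whose exons share 539 bases (15.5%) with those of Dbp, had the same order, at 20.4 and 19.4 in RVC and 15.4 and 17.05 in fresh frozen, and the part of shared reads was not tested. Per1, a period gene that is also induced acutely by hormones and cAMP, measured 19.6 and 18.3 in RVC and 12.1 and 14.9 in fresh frozen. Its groups did not overlap either, and limma put it at 0.47 on the log2 scale, with SE 0.13 and adjusted p 0.161. Ciart, which carried the 3 E-boxes above, measured 28.0 and 23.1 in RVC and 19.1 and 20.9 in fresh frozen. The groups did not overlap, but the RVC libraries lay farther from each other than RVC 2 lay from fresh frozen 2. Limma put the log2 fold change at 0.33 (adjusted p 0.244), and it was 0.20 without RVC 1.

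The pair of REV-ERB genes, whose proteins repress the same targets, had different patterns. Nr1d1 measured 47.9 and 46.7 in RVC, and 24.6 and 42.0 in fresh frozen. The groups did not overlap, and fresh frozen 1 alone was far from the rest. Limma put Nr1d1 at 0.54 on the log2 scale, with SE 0.22 and adjusted p 0.261. It was 0.16 without fresh frozen 1 and 0.91 without fresh frozen 2. Nr1d2 measured 31.7 and 34.4 in RVC and 33.9 and 40.1 in fresh frozen, so that its groups overlapped. Its log2 fold change was -0.16, with a 95% interval of -0.44 to 0.13, and ran from -0.28 without fresh frozen 1 to -0.04 without fresh frozen 2. The difference between Nr1d1 and Nr1d2 on the log2 scale was 0.58 and 0.43 in RVC and -0.45 and 0.07 in fresh frozen, and this difference was not tested.

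Exons of Nr1d1 share 1694 bases, or 52.3% of their length, with Thra, the thyroid hormone receptor gene on the opposite strand. A strand setting is not given in the sources used here, so reads from the shared part cannot be assigned to either gene with certainty. Thra measured 14.4 and 14.8 scaled FPKM in the RVC libraries and 12.5 and 11.9 in fresh frozen. Both RVC libraries thus lay above both fresh-frozen libraries for Thra, the same order of groups as for Nr1d1. Thra was slightly higher in fresh frozen 1 than in fresh frozen 2, whereas Nr1d1 was far lower in fresh frozen 1. The part of shared reads in the Nr1d1 values was not tested. For the main Nr1d1 transcript (ENSMUST00000064941, 2721 nt) the deposited bounds ran from 22.3 to 25.5 FPKM in fresh frozen 1 and from 37.9 to 42.2 in fresh frozen 2.

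The period genes Per2 and Per3 did not separate the groups. Per2 measured 11.1 and 8.22 in RVC and 8.29 and 9.25 in fresh frozen, with RVC 1 alone high. Its log2 fold change was 0.11 (95% interval -0.26 to 0.48). Per3 measured 7.07 and 7.86 in RVC and 7.33 and 7.73 in fresh frozen, and its log2 fold change was -0.01 (95% interval -0.30 to 0.27). Per3 was the steadiest of the 10 genes, with a coefficient of variation of 4.83% over the 4 libraries, a value that 94.4% of tested genes exceeded. The corresponding values were 14.5% for Per2, 20.9% for Per1, 20.6% for Dbp and 26.8% for Nr1d1, and the median over all tested genes was 13.8%.

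Of the cryptochromes, which encode the repressors that bind CLOCK and BMAL1, Cry2 separated the groups and Cry1 did not. Cry2 measured 14.3 and 13.3 in RVC and 9.70 and 9.77 in fresh frozen, so that both groups were tight and apart. Limma put its log2 fold change at 0.46, with SE 0.11 and adjusted p 0.138. Cry1 measured 5.1 and 3.74 in RVC and 4.57 and 3.27 in fresh frozen, so that sample 1 was the higher one in both groups. Its log2 fold change was 0.14 (95% interval -0.30 to 0.58).

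Clock, the activator among the 10, had the opposite direction. It measured 11.9 and 15.3 scaled FPKM in the RVC libraries and 17.4 and 17.2 in fresh frozen, without overlap, and RVC 1 was the lowest library. Limma put the difference at -0.33 on the log2 scale, with SE 0.14 and adjusted p 0.267, and it was -0.16 without RVC 1 and -0.50 without RVC 2. Tmem165, whose exons share 2047 bases with those of Clock on the opposite strand, measured 12.4 and 13.2 in RVC and 16.9 and 14.7 in fresh frozen, the same order of groups. The part of the shared reads in the Clock values was not tested.

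None of the 10 genes passed an adjusted p of 0.05 in limma, fitted over 13771 genes of which 5 passed (0.0363%). At an unadjusted p under 0.05, 5 of the 10 were higher in RVC (Dbp, Cry2, Per1, Ciart and Nr1d1), where 9.38% of all tested genes were, and 1 was lower (Clock), where 8.99% were, or 18.4% in either direction. The same 6 genes were those whose groups did not overlap, where 26.5% of all tested genes were higher and 26.6% lower without overlap, 53.2% in all. The count of 6 at an unadjusted p under 0.05 was 2 without RVC 1 and 3 without fresh frozen 1. Per2, Per3, Cry1 and Nr1d2 overlapped. The median log2 fold change of the 10 was 0.24, beside 0.0066 over all tested genes, and it was 0.13 without RVC 1 and 0.40 without RVC 2. With 2 libraries a group, the smallest two-sided p of an exact permutation test is 0.333, so single genes rest on the fit across genes.

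**Figure D2:**
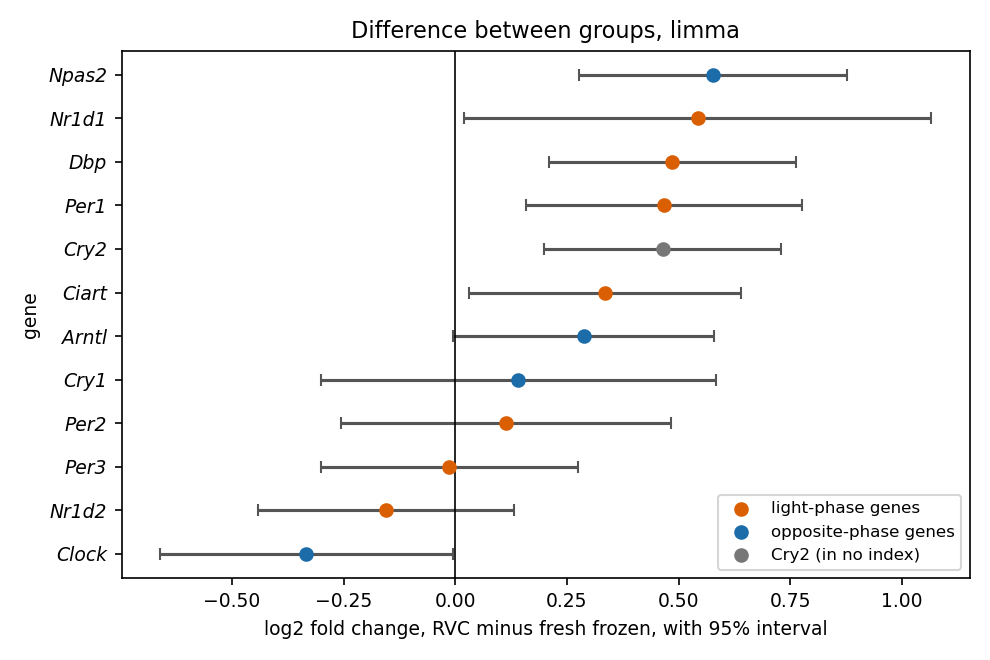
Log2 fold change of each gene, RVC minus fresh frozen, with the 95% interval from limma (horizontal), for the 10 clock genes, Arntl and Npas2. Npas2 (0.58) and Arntl (0.29), of opposite phase, lie on the same side of 0 as Dbp (0.49), and Clock (-0.33) lies on the other.

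Genes of opposite phase were then contrasted within each library. Cry1, described above only as peaking later than the Per genes, was set on the opposite side in the first contrast. The mean log2 level of the 7 light-phase genes (Per1, Per2, Per3, Nr1d1, Nr1d2, Dbp and Ciart) exceeded that of Clock and Cry1 by 1.46 and 1.38 in RVC 1 and 2, and by 0.84 and 1.30 in fresh frozen 1 and 2. Fresh frozen 1 was low, and the other three lay close together. The group means differed by 0.35, and the difference was 0.12 without fresh frozen 1 and 0.58 without fresh frozen 2. Against Arntl, Npas2 and Clock, the excess of the same 7 genes was 1.17 and 0.93 in RVC and 0.85 and 1.10 in fresh frozen. On this contrast the groups overlapped, and the difference of 0.08 was smaller than that between the RVC libraries (0.23) or the fresh-frozen libraries (0.26). Its sign turned when RVC 1 (-0.04) or fresh frozen 1 (-0.05) was left out. No p is given for these scores, whose genes were chosen with results of these libraries known.

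Within the light-phase genes, Nr1d1 peaks earlier in the day than Per2. Nr1d1 minus Per2 on the log2 scale was 2.02 and 2.37 in RVC and 1.46 and 2.07 in fresh frozen. Fresh frozen 1 was again lowest, and RVC 1 lay below fresh frozen 2, so the groups overlapped. The group difference of 0.43 was smaller than that between the fresh-frozen libraries (0.61), and it was 0.12 without fresh frozen 1 and 0.25 without RVC 2.

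**Figure D3:**
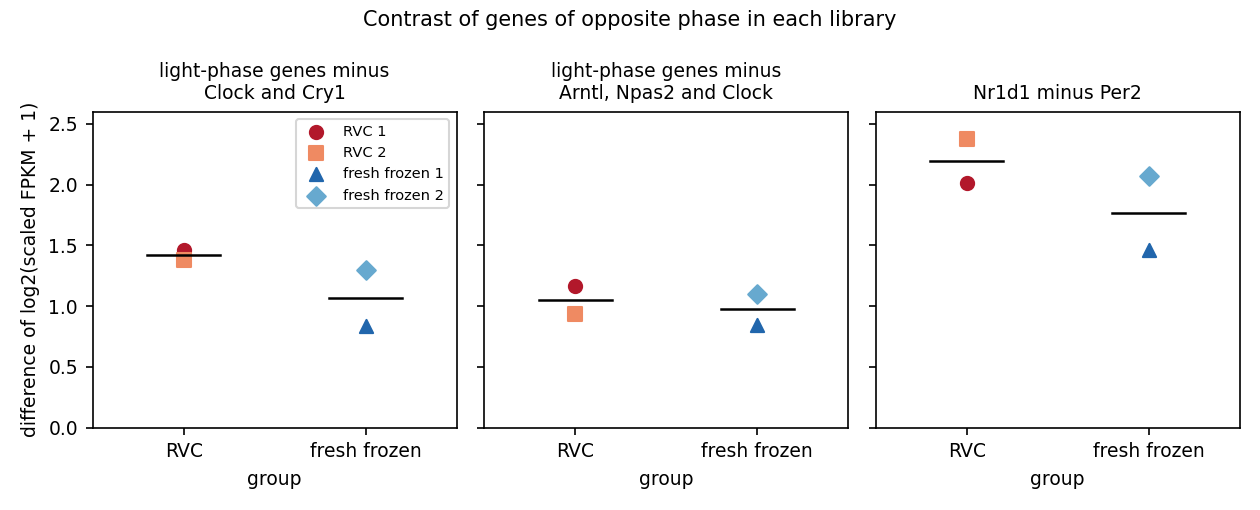
Difference of log2(scaled FPKM + 1) between genes of opposite phase (left and middle) and between an earlier and a later light-phase gene (right), with 1 point per library and a bar at each group mean. The opposite side in the left panel is Clock with Cry1, which peaks later than the Per genes. In the left panel fresh frozen 1 (0.84) lies below the other three (1.30 to 1.46), and in the middle and right panels the groups overlap.

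As ratios of levels, Dbp stood at 5.49 and 5.01 times Arntl in RVC and at 4.67 and 4.61 times in fresh frozen. Nr1d1 stood at 4.82 and 4.69 times Arntl in RVC, and at 3.33 and 4.88 times in fresh frozen. For Dbp over Npas2 the ratios were 6.70 and 5.83 in RVC and 6.08 and 8.10 in fresh frozen, with the groups overlapping. Against Clock, the ratios of Dbp were 4.57 and 3.25 in RVC and 1.98 and 2.31 in fresh frozen, without overlap. Per2, the latest of the light-phase genes, was near Arntl in level, with ratios of 0.82 to 1.12. On the log2 scale the RVC minus fresh-frozen difference of Dbp was 0.82 against Clock, 0.34 against Cry1, 0.20 against Arntl and -0.09 against Npas2, so its size and direction varied with the opposite gene.

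Arntl and Npas2, the targets that REV-ERB proteins repress, were measured in the same way. Arntl measured 9.93 and 9.97 scaled FPKM in the RVC libraries and 7.38 and 8.61 in fresh frozen, which limma put at 0.29 on the log2 scale (adjusted p 0.276). It was 0.19 without fresh frozen 1. Npas2 measured 8.14 and 8.56 in RVC and 5.66 and 4.89 in fresh frozen, which limma put at 0.58 (adjusted p 0.130). Both were higher in RVC without overlap, on the same side as Dbp, Per1 and Nr1d1.

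The size of these differences depended in part on transcripts other than the main one. The main transcript of Arntl (ENSMUST00000047321, 2908 nt) measured 6.25 and 6.36 FPKM in the RVC libraries and 6.00 and 6.78 in fresh frozen, and the groups overlapped. A second transcript (ENSMUST00000211770, 2464 nt) measured 2.72 and 2.43 in RVC and 1.197 and 0.89 in fresh frozen. For Npas2 a transcript of 484 nt (ENSMUST00000173050) measured 3.53 and 3.25 in RVC and 1.49 and 1.09 in fresh frozen. It made up 43.6% and 37.9% of the Npas2 sum in RVC and 25.9% and 22.5% in fresh frozen. The main Npas2 transcript of 4236 nt measured 4.51 and 5.06 against 4.25 and 3.76, without overlap. When each gene was represented by its most abundant transcript, the log2 fold change was 0.0040 for Arntl and 0.23 for Npas2, and the contrast of light-phase genes against Arntl, Npas2 and Clock grew from 0.08 to 0.32.

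Among the 10 genes the main transcripts of Dbp (1837 nt), Cry2 (3976 nt), Ciart (1398 nt), Per1 and Nr1d1 kept both RVC libraries above both fresh-frozen libraries. The deposited bounds of the Dbp transcript were 30.6 to 35.2 and 27.8 to 32.1 FPKM in the RVC libraries and 17.4 to 20.8 and 21.7 to 25.1 in fresh frozen. Per1 was split over 6 transcripts, and one of them (ENSMUST00000166748) stood at 2.39 FPKM in RVC 1 and 2.84 in fresh frozen 2 but at 0.01 in the other libraries. Its main transcript measured 9.35 and 10.6 in RVC and 7.75 and 4.66 in fresh frozen. For Clock, the 9744-nt transcript measured 3.21 and 3.51 in RVC and 6.28 and 4.89 in fresh frozen, and the 7478-nt transcript 4.59 and 5.85 against 7.15 and 6.84. Transcripts with a retained intron took 16.9% to 24.3% of Nr1d2, 14.8% to 19.5% of Dbp and 19.5% to 27.9% of Per3. Cufflinks divides reads among overlapping transcripts by likelihood, so single transcripts are less certain than their sum.

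**Figure D4:**
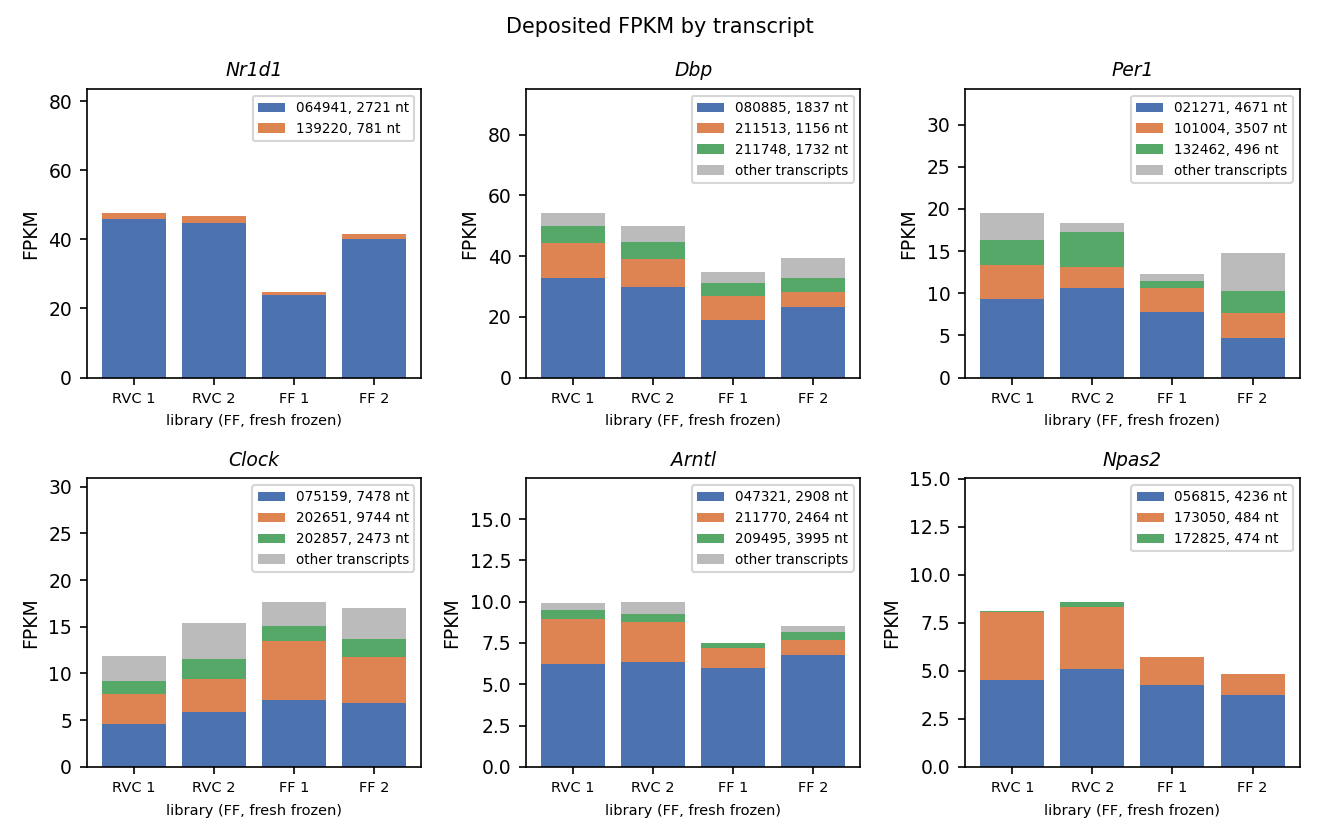
Deposited FPKM of the 3 most abundant transcripts and the sum of the others (stacked bars) in each library, for 6 clock genes, with the last 6 digits of each transcript's identifier and its length. The main transcript of Arntl lies between 6.00 and 6.78 in all 4 libraries, and the second one is larger in RVC (2.72 and 2.43) than in fresh frozen (1.197 and 0.89).

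Other genes of the clock were taken from lists of activators, ROR receptors, D-box factors, DEC repressors, modifiers of clock proteins and rhythmic outputs. Of 30 symbols, 27 were in the tables and 22 were tested. Of the 22, 0 passed an adjusted p of 0.05 in limma, 2 were higher in RVC at an unadjusted p under 0.05, Npas2 among them, and 0 were lower. Their median log2 fold change was 0.11. The groups were apart for 6 of the 22 on the higher side and for 2 on the lower side, beside 26.5% and 26.6% of all tested genes, so the higher count was near the background. The 2 at an unadjusted p under 0.05 stand beside 9.38%. The 10 tested modifiers of clock proteins, such as kinases that mark PER proteins, had a median of 0.07, and the 5 tested rhythmic outputs one of 0.02.

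Rora, a receptor that activates through the element REV-ERB proteins repress, was low, at 1.22 to 1.82 scaled FPKM over the 4 libraries, with overlap. The D-box activator Tef, a relative of Dbp, measured 40.02 and 35.6 in RVC and 31.9 and 35.7 in fresh frozen, with overlap and a log2 fold change of 0.16. Hlf, the third of this family, measured 2.48 and 2.55 against 2.13 and 2.35, a log2 fold change of 0.12. Nfil3, the repressor at D-boxes that is high when Dbp is low, was at 0.32 or less in every library and was not tested. Bhlhe40, a DEC repressor, measured 49.4 and 45.4 in RVC and 46.8 and 39.6 in fresh frozen, with overlap.

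Per1 also responds to glucocorticoid hormone and to immediate early signals, so lists of both were set beside it. Of 8 glucocorticoid-responsive genes 6 were tested. Their median log2 fold change was 0.05, and 0 of them had an unadjusted limma p under 0.05, beside 18.4% of all tested genes. Sgk1 measured 209 and 133 in RVC and 230.5 and 149 in fresh frozen, higher in sample 1 of both groups, as Cry1 was. Tsc22d3 measured 37.9 and 44.7 against 39.98 and 31.3, with overlap. Of 8 immediate early genes 7 were tested, all with a log2 fold change above 0, beside 51% of all tested genes. Their median was 0.26. The groups were apart on the higher side for 5 of the 7, beside 26.5% of all tested genes. At an unadjusted limma p under 0.05, 2 were higher (Fosb and Junb), beside 9.38%. Fosb was near the filter on low values, at 1.698 and 1.395 in RVC and 0.479 and 0.973 in fresh frozen. Junb measured 53.4 and 61.3 in RVC and 39.5 and 44.4 in fresh frozen. Fos measured 82.7 and 52.9 in RVC and 65.8 and 57.5 in fresh frozen, with overlap.

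Marker genes of other cell types differed between the libraries as well, and in bulk tissue fewer cells of a type and less RNA per cell cannot be told apart. All 8 smooth muscle markers were higher in RVC without overlap, where 26.5% of all tested genes were. Their median log2 fold change was 0.88. Their summed level was 1134 and 1679 scaled FPKM in the RVC libraries and 688 and 754 in fresh frozen. All 6 endothelial markers were higher without overlap too, with sums of 21.6 and 20.1 in RVC and 10.8 and 13.3 in fresh frozen. The 10 epithelial markers summed to 6728 and 6330 in RVC and 6401 and 5591 in fresh frozen, with overlap and a median of 0.10. No marker of these lists was at 0 in any library. The 6 fibroblast markers had a median of 0.18 and no gene with groups apart, beside 53.2% of all tested genes in either direction. Of 4 tested immune markers, 3 were higher without overlap, beside 26.5% of all tested genes, and the median was 0.37. Of 5 tested enteric neuron and glia markers, 1 was higher without overlap, and the median was 0.26. The smooth muscle sum was highest in RVC 2 and the endothelial sum in RVC 1. Dbp, Per1, Ciart, Cry2, Nr1d1, Per2 and Cry1 were highest in RVC 1, and Per3, Arntl and Npas2 in RVC 2. Clock and Nr1d2 were highest in a fresh-frozen library. The part of these cell types in the clock gene values was not tested.

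The pattern of Dbp over the 4 libraries was compared with those of other genes by the distance between centred log2 values. Among the clock genes Per1 was nearest, at 0.07, followed by Cry2 at 0.14, Ciart at 0.19 and Arntl at 0.22. Clock was farthest, at 0.90. Of 201 tested genes with a mean of at least 5 scaled FPKM and a span of at least 1 on the log2 scale, none was a clock gene, and Dbp itself spanned only 0.65. With predicted symbols (Gm, Rik and similar) passed over, the 5 nearest to Dbp in that set were Mov10, Ltbp4, Ece1, Abi3 and Flna. Their distances were 0.28 to 0.42. Genes that spanned less than 1, as Dbp did, were left out of that set, and some of them may lie nearer to Dbp. The distances in that set are therefore not comparable with those of the clock genes. Mov10 measured 14.6 and 11.3 in RVC and 6.59 and 8.60 in fresh frozen. Flna, an actin-binding protein gene abundant in smooth muscle, measured 90.8 and 117 against 55.8 and 77.4. With 4 libraries such likeness is a description only.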

How the data were processed

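Intestinal RNA of 2 RVC and 2 fresh-frozen libraries was analysed; replicate numbers were taken from the sample titles. Per the labels' protocols, ribosomal RNA was depleted and 150-bp read pairs were sequenced. Per the submitters' processing notes, reads were aligned to GRCm39 with TopHat2 2.1.1 and quantified with Cufflinks 2.2.1. The deposited values are FPKM per transcript with lower and upper bounds, and coverage, a signal of reads per base, used only for relative depth, per the file headers. The annotation release and strand setting are not given in the sources used here, and depth in fragments is unknown.

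Gene FPKM was summed over transcripts and scaled by median ratio. Genes with a mean of at least 1, a transcript of at least 300 nt and status OK in every library (13771) were compared on log2(scaled FPKM + 1) with limma 3.58.1 in R 4.3.3 (trend, two-sided, no covariate, Benjamini-Hochberg over all genes, threshold 0.05). Count models do not apply to FPKM. Strand, types and promoters came from GENCODE vM39 and GRCm39. Tables were made with pandas 2.3.3 and figures with matplotlib 3.10.9. The members, lists and tests were chosen with earlier results of these data known. All 10 genes were named, with tested activators, ROR, D-box and DEC genes, and other listed clock genes at an unadjusted p under 0.05. So were the 2 most abundant genes of each response list and the 5 genes nearest to Dbp, predicted symbols passed over. Fosb was named after its value was seen, and 1 gene that the rule names is not reported here. Lists of enteric neuron and immune markers had medians of 0.26 and 0.37. Alternatives were another pseudocount (0.1), other scalings, filters (none, mean of at least 5), transcript choices, a block on sample number, no trend and each library left out.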

Additional observations from a re-analysis of the deposited data

How the results depend on the processing

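With 2 libraries per group, 1 library could move most values. The count of genes passing an adjusted p of 0.05 in limma (5) was 0 without a filter on low values, without transcripts under 300 nt in the sum and without a trend, and 2 at a mean of at least 5 scaled FPKM and with the most abundant transcript. It ran from 8 to 40 when each library was left out. With the sample number as a replicate block it was 112. Deviations of same-numbered libraries were weakly and negatively correlated over 13771 genes (r = -0.13), although Cry1, Nr1d2 and Per3 deviated the same way, so a crossed pairing, chosen after seeing the data, was tried and gave 12. The numbers were not taken to pair the libraries. The count of clock genes passing stayed at 0 under every alternative run, both blocks included. The count of 6 clock genes at an unadjusted p under 0.05 was 3 without a filter and 3 without a trend, and ran from 2 to 5 with each library left out. The median log2 fold change of the clock genes was 0.33 at a mean of at least 5, which leaves out Cry1, and ran from 0.13 to 0.40 over left-out libraries. The contrast against Arntl, Npas2 and Clock was 0.32 with the most abundant transcript and ran from -0.05 to 0.20 over left-out libraries. Those of Clock and Cry1, and of Nr1d1 minus Per2, ran from 0.12 to 0.58 and from 0.12 to 0.73.

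Of 139 values of single clock genes under alternatives, 134 kept their direction and side of the threshold and 5 reversed, all with a library left out. Over left-out libraries Per3 ran from -0.081 to 0.054, Per2 from -0.083 to 0.31, Cry1 from -0.054 to 0.33, Rora from -0.16 to 0.18, Sgk1 from -0.48 to 0.17 and Fos from -0.21 to 0.42. Abi3 passed with the replicate block (limma adjusted p 0.0409). The log2 fold change of Ece1 fell from 0.60 to 0.27 without transcripts under 300 nt in the sum. The causes were not tested. The lone library of a group was assumed to vary like the other group. Deposited bounds of the main transcripts lay 5.10% to 13.5% from the value, which limits the smallest differences a single library can show.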
